A study of Mus musculus with 11 samples.

Results

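The genes described here are 8 signals and receptors of the interleukin 10 and interleukin 6 families: the ligand genes Il10, Il6, Osm and Lif, and the receptor chain genes Il10ra, Il10rb, Il6ra and Il6st. They were chosen by name, among the 34745 genes of a deposited RNA sequencing table of cultured adult mouse microglia, and all 8 were found. The microglia, the resident macrophages of the brain, were taken from cerebrum, and the donor animals were C57BL/6 mice of 6 to 8 weeks. Before stimulation all groups were grown for 10 to 14 days in serum-containing medium that held M-CSF (10 ng/ml) and TGF-beta1 (5 ng/ml), so the Control cells also had those 2 factors. Control libraries (n = 3) had no further agent. Pam3CSK4 libraries (n = 2) had Pam3CSK4, a lipopeptide agonist of Toll-like receptor 2 (TLR2), at 100 ng/ml for 24 h. IFN-gamma libraries (n = 3) had interferon gamma at 20 ng/ml for 24 h. Pam3CSK4+IFN-gamma libraries (n = 3), called the combined group below, had Pam3CSK4 first (100 ng/ml, 24 h) and IFN-gamma after it (20 ng/ml, 24 h). The labels do not say whether Pam3CSK4 was removed before IFN-gamma, nor give harvest hours for the Control and Pam3CSK4 cells. Where the combined group is compared with Pam3CSK4, and in the interaction, IFN-gamma therefore cannot be told apart from order or from time since Pam3CSK4. They also do not tie libraries to separate animals or cultures, so p-values measure the spread between these libraries, which may be technical.

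IL-10 is a cytokine that limits inflammatory output of macrophages. It binds a receptor of a ligand-specific chain, IL-10RA, and a chain shared with other cytokines, IL-10RB, and signals through JAK1 and TYK2 to the transcription factor STAT3. IL-6, oncostatin M and LIF share the signal-transducing chain gp130, encoded by Il6st. IL-6 first binds IL-6RA, either on the cell or as a shed soluble form, whereas LIF and oncostatin M pair gp130 with the LIF receptor or the oncostatin M receptor. All of them activate STAT3, which induces Socs3, a brake that binds gp130.

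The 250 bases before the gene start were available from RefSeq (GRCm38.p6, the assembly named mm10) for Il6, Lif, Il6ra and Il6st. No entry was used for Il10, Il10ra, Il10rb and Osm. The Il6 and Lif stretches are shown because these 2 ligand genes were higher in Pam3CSK4 libraries than in Control replicates 1 and 2, and because only they, of the 4, held matches to the motifs searched. Capitals mark matches on either strand to AP-1 (TGANTCA), C/EBP (TTNNGCAA), GAS (TTCNNNGAA) or the NF-kappaB motif. The Il6 stretch is chr5:30012864-30013113 on the plus strand, and the Lif stretch, which stops at the gene start of the deposited table, is chr11:4257318-4257556 on the plus strand.
Il6: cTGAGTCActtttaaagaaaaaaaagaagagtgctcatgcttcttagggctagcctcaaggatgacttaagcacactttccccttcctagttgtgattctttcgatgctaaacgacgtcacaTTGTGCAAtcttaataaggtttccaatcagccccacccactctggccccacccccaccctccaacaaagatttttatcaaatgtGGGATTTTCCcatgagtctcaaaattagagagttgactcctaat
Lif: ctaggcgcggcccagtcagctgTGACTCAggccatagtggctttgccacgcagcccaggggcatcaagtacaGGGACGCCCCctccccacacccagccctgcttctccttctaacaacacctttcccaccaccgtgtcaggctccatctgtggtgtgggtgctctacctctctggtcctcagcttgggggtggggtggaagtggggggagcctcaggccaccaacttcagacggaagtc
Counted back from the RefSeq start, with -1 the base before it, the Il6 stretch held an AP-1 match from -249 to -243, a C/EBP match from -128 to -121 and an NF-kappaB match from -44 to -35. The Lif stretch held an AP-1 match from -228 to -222 and an NF-kappaB match from -178 to -169. No searched motif overlapped another there. Of 32851 mouse stretches of this length, 6.75% held the AP-1 letters, 9.56% the C/EBP letters, 7.02% the GAS letters and 7.25% the NF-kappaB motif. A match describes letters only and shows neither binding nor use.

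Total counts per library were 15033702 to 20321017. All 12 microglial marker genes were at 1 FPKM (fragments per kilobase of gene, scaled to library size) or more in every library, with summed levels of 7111 to 10348 FPKM in Control, 8861 to 9556 FPKM with IFN-gamma and 4981 to 5771 FPKM in the Pam3CSK4 and combined groups. Transcripts of mural cells, which wrap vessels, and of matrix-making fibroblasts were also found in 3 libraries: Control replicate 3, replicate 1 of IFN-gamma and replicate 3 of the combined group. They are called stromal transcripts below. Over 12 such markers the summed level was 2213 FPKM in Control replicate 3, 121 FPKM in IFN-gamma replicate 1 and 55.7 FPKM in combined replicate 3, and 1.16 to 3.85 FPKM in the others. Of these markers 11, 11 and 10 of 12 had a count in those 3 libraries, and 4 to 10 of 12 elsewhere. The pericyte matrix gene Vtn was at 0 in every library. Other marker lists also moved with libraries or groups. Over 8 astrocyte markers the sum was 32.0 FPKM in Control replicate 3, of which Gja1 gave 30.8 FPKM, and 0.337 to 3.69 FPKM elsewhere, and over 8 neuronal markers it was 3.62 to 10.8 FPKM in the 3 libraries with stromal transcripts and 0.126 to 0.536 FPKM elsewhere. Over 8 endothelial markers it was 17.2 to 29.1 FPKM in Control and IFN-gamma libraries, most of it Flt1 except in Control replicate 3 (Cdh5 at 13.7 FPKM and Flt1 at 11.0 FPKM), and 2.56 to 5.06 FPKM in the Pam3CSK4 and combined groups, with Cldn5 at 0 in every library. Over 12 markers of other immune cells it was 12.8 to 18.6 FPKM in the combined group, most of it S100a8 and Ly6c2, and 4.56 to 9.60 FPKM elsewhere, with the T-cell gene Cd3g at 0 in every library. Results are therefore given for all 11 libraries and without the 3 with stromal transcripts, and the part of such cells in a result was not tested. In bulk RNA, fewer cells of a type and less RNA per cell cannot be told apart.

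Changes were tested with edgeR's quasi-likelihood test over the 10938 genes that reached 1 FPKM in 2 or more libraries. A gene was called where its p, adjusted by Benjamini-Hochberg over all of them, was under 0.05, and each change is a log2 ratio of group means with its standard error (SE). All 8 genes passed this filter. Il10 passed only through libraries given Pam3CSK4, so it had to differ from groups without it to be tested, and the counts below that include it are a description. In Pam3CSK4 against Control, Il10 and Osm rose and Il6ra and Il6st fell, so 4 of 8 were called where 41.4% of all tested genes were. In IFN-gamma against Control, Il10ra rose and Il10rb, Il6ra, Il6st and Osm fell (5 of 8, with 41.6% of all genes called). In the combined group against IFN-gamma, Il10 and Osm rose and Il6ra and Il6st fell (4 of 8, with 34.2% of all genes called), and against Pam3CSK4 only Il10 was called, as lower (1 of 8, with 9.1% of all genes called and 3.04% lower). Against Control the combined group had Il10 and Osm higher and Il10rb, Il6ra and Il6st lower (5 of 8, with 47.6% of all genes called). The interaction, which is the Pam3CSK4 effect in the presence of IFN-gamma minus that in its absence, was called as positive for Il6st and Osm (2 of 8, with 16% of all genes called and 8.01% positive). These comparisons share libraries and are not independent of each other.

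The median change over the 8 genes was -0.17 in Pam3CSK4 against Control, beside -0.04 over all tested genes, and 0.55 in the combined group against IFN-gamma, beside -0.02, and neither depends on the exact value fitted for Il10. Without the 3 libraries with stromal transcripts these medians were 0.19 (-0.01 over all genes) and 1.14 (-0.006), so the first changed sign. In that fit 10568 genes were tested, and more of the 8 were called. In this smaller set Il6, Lif and Il10 reached 1 FPKM only in libraries given Pam3CSK4, so the counts are again a description. Il6, Lif and Il10rb joined in Pam3CSK4 against Control (7 of 8, with 54.8% of all genes called), and Il6 and Lif in IFN-gamma against Control (7 of 8, with 48.4%). Il6, Lif and Il10ra joined in the combined group against IFN-gamma (7 of 8, with 41.2%), Il6 against Pam3CSK4 (2 of 8, with 20.1%), Il6 and Lif against Control (7 of 8, with 54.6%), and Il6 and Il10rb in the interaction (4 of 8, with 29.5%). Leaving out only Control replicate 3 and IFN-gamma replicate 1 gave 6 of 8 in Pam3CSK4 against Control (55.3% of all genes), where Osm was no longer called, and 6 of 8 in IFN-gamma against Control (49.1%), where Lif was not called. It gave 7 of 8 in the combined group against IFN-gamma (46%), 3 of 8 against Pam3CSK4 (22.1%), 7 of 8 against Control (59.6%) and 5 of 8 in the interaction (31.9%). Without the 3 libraries the share called among all genes was higher as well in each of the 6 comparisons.

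**Figure D1:**
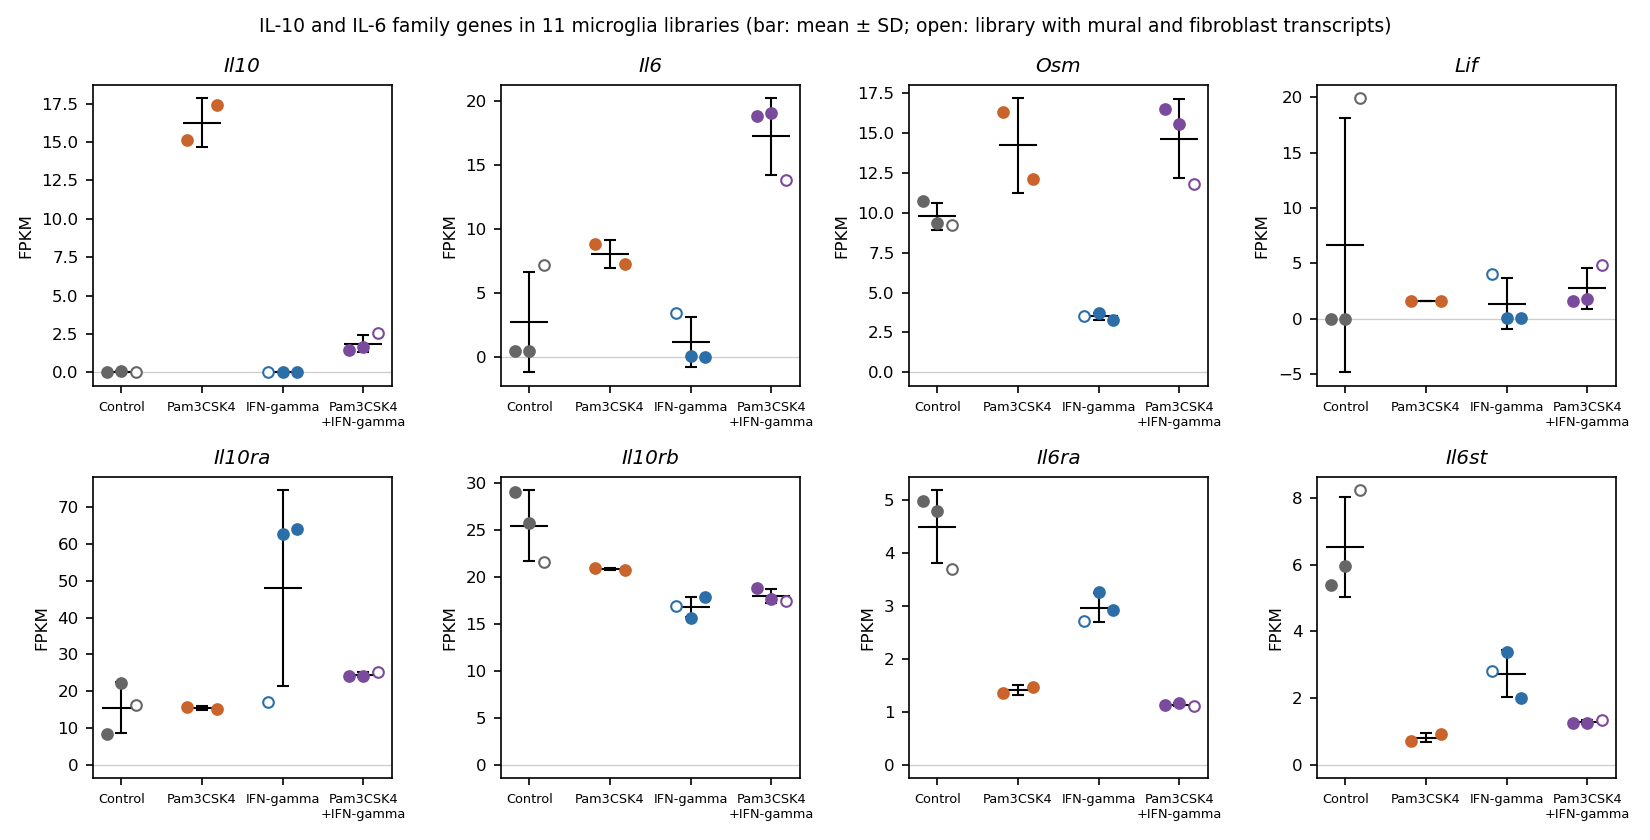
FPKM (y axis) of the 8 genes in each library, by group (x axis), with the group mean and SD as bars and open circles for the 3 libraries with stromal transcripts. Il10 is at 15.1 and 17.4 FPKM in the Pam3CSK4 libraries and at most 2.54 FPKM elsewhere, while the highest Lif value, 19.9 FPKM, is Control replicate 3.

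Il10 was a transcript of the groups given Pam3CSK4. It stood at 0, 0.0965 and 0.0426 FPKM in the Control libraries (0, 2 and 1 counts), at 15.1 and 17.4 FPKM with Pam3CSK4 (363 and 354 counts), at 0 in each IFN-gamma library, and at 1.44, 1.65 and 2.54 FPKM in the combined group (38, 44 and 65 counts). Every library given Pam3CSK4 was above every library not given it, and both Pam3CSK4 libraries were above all 3 combined ones. By counts per library size, Pam3CSK4 was 343 times Control (95% counting interval 117 to 1666; edgeR adjusted p = 5.4e-05) and the combined group 42.7 times Control (14.3 to 209; edgeR adjusted p = 0.00026). The combined group was at least 40.9-fold higher than IFN-gamma, with a floor of 3 counts over the group (edgeR adjusted p = 0.00022). With no filter on level, edgeR's adjusted p for these 3 comparisons was 3.4e-05, 0.00022 and 0.00016.

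With Pam3CSK4 given first and IFN-gamma after it, Il10 was 8.04-fold lower than with Pam3CSK4 alone (log2 change -3.01 ± 0.46 SE, edgeR adjusted p = 0.0070). Group means were 1.88 ± 0.585 FPKM (SD, n = 3) and 16.3 ± 1.59 FPKM (SD, n = 2). This call was lost without Pam3CSK4 replicate 2 (-2.89, adjusted p = 0.066) and held in the other 20 alternatives run, in the one without Pam3CSK4 replicate 1 only just under the threshold. Without the 3 libraries with stromal transcripts it was -3.28 ± 0.26 SE (adjusted p = 0.00023). No fold is given between IFN-gamma and Control, with 0 and 3 counts in all, nor for the interaction, whose IFN-gamma group held 0 counts. The gene (ENSMUSG00000016529) lies on chromosome 1, 131019845 to 131024974 (mm10, plus strand), and no annotated gene overlaps it.

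Il6, the main inflammatory ligand that uses gp130, is on chromosome 5, 30013114 to 30019981 (ENSMUSG00000025746, plus strand), just after the stretch shown above. Its level was 0.488, 0.464 and 7.22 FPKM in Control, 8.79 and 7.26 FPKM with Pam3CSK4, 3.46, 0.0786 and 0.0162 FPKM with IFN-gamma, and 18.8, 19.0 and 13.8 FPKM in the combined group. The high value of Control and the high value of IFN-gamma were both in libraries with stromal transcripts. Control replicate 3 (528 counts, against 30 and 30 in the other Control libraries) had 865 FPKM of smooth muscle actin (Acta2), 430.4 FPKM of Col1a1 and 187 FPKM of Col1a2, both type I collagen chains. IFN-gamma replicate 1 (235 counts, against 6 and 1) had 44.1 FPKM of Acta2, 11.4 FPKM of Col1a1 and 6.05 FPKM of Col1a2.

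Pdgfrb, a pericyte and fibroblast receptor, stood at 6.79 FPKM in Control replicate 3 and 3.12 FPKM in IFN-gamma replicate 1, and Dcn, a fibroblast proteoglycan, at 1.05 and 7.43 FPKM. Combined replicate 3, with 10.5 FPKM of Acta2 and 16.4 FPKM of Dcn, had the lowest Il6 of its group. Over all 11 libraries Il6 was not called in any of the 6 comparisons, and its changes carried SEs of 1.33 to 1.96 log2 units. Pam3CSK4 against Control was 1.62 (edgeR adjusted p = 0.38), IFN-gamma against Control -1.05 (0.56), and the combined group against IFN-gamma 3.88 (0.061). The combined group against Pam3CSK4 was 1.21 (0.69), against Control 2.83 (0.11), and the interaction 2.26 (0.46).

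Without the 3 libraries the Il6 groups did not overlap and all 6 comparisons were called. Il6 was 16.0-fold higher with Pam3CSK4 than in Control (log2 change 4.00 ± 0.20 SE, edgeR adjusted p = 2.0e-06), 8.78-fold lower with IFN-gamma than in Control (-3.13 ± 0.40, adjusted p = 0.00047), 40.8-fold higher in the combined group than in Control (5.35 ± 0.19, adjusted p = 4.1e-07) and 2.55-fold higher in the combined group than with Pam3CSK4 (1.35 ± 0.14, adjusted p = 0.00048). The combined group was also 358-fold above IFN-gamma, where 6 and 1 counts remained (8.49 ± 0.26, adjusted p = 3.9e-07). The interaction was 4.48 ± 0.42 (adjusted p = 0.00034). These fits rest on 2 libraries in every group, and in them Il6 passed the filter only through libraries given Pam3CSK4. Leaving out Control replicate 3 alone turned IFN-gamma against Control to 1.34 (adjusted p = 0.42), because IFN-gamma replicate 1 remained.

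**Figure D2:**
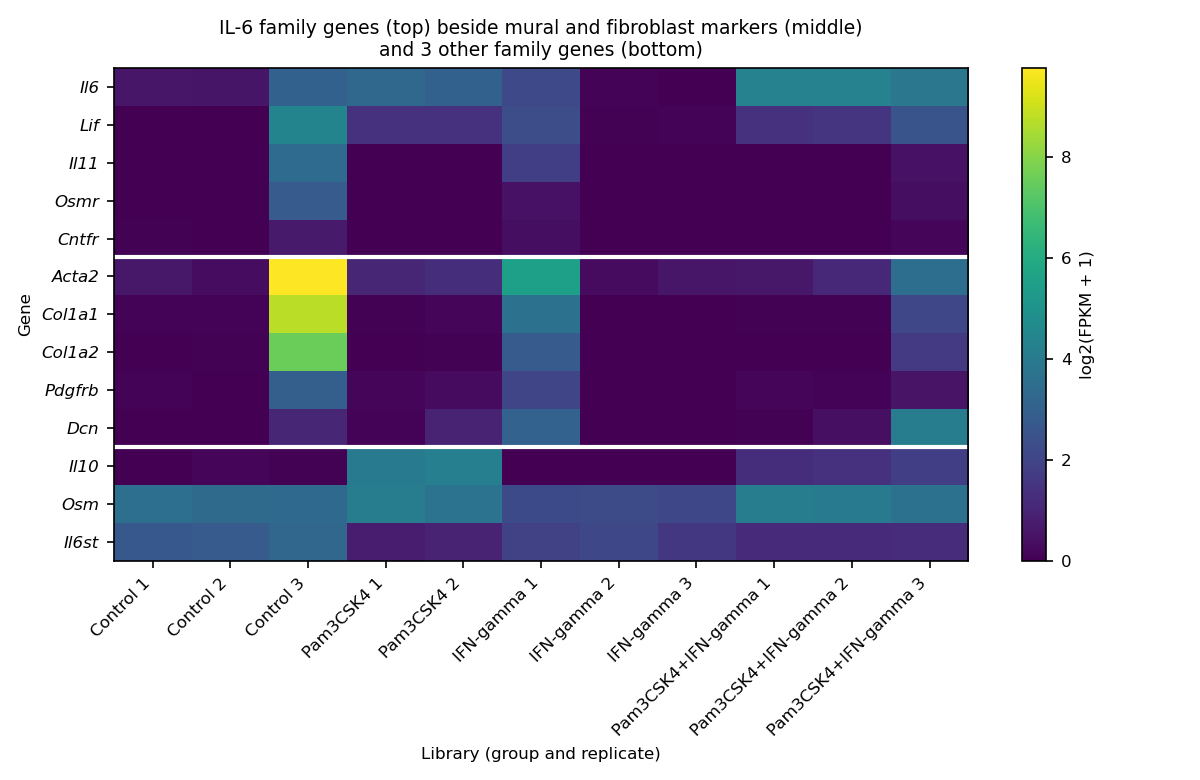
Level of each gene (rows) in each library (columns) as log2(FPKM + 1), from dark (0) to yellow (high); IL-6 family genes are above the first white line, mural and fibroblast markers between the lines, and Il10, Osm and Il6st below them. In Control replicate 3 and IFN-gamma replicate 1, Il6, Lif and Il11 are high in the same columns as Acta2 and Col1a1, whereas Il6 is also high in the Pam3CSK4 and combined libraries with 1.26 to 3.85 FPKM of the 12 such markers in all.

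Osm encodes oncostatin M, an IL-6 family ligand made mainly by blood and tissue myeloid cells. It was at 10.8, 9.39 and 9.22 FPKM in Control, 16.3 and 12.1 FPKM with Pam3CSK4, 3.54, 3.71 and 3.30 FPKM with IFN-gamma, and 16.5, 15.6 and 11.8 FPKM in the combined group. The 3 IFN-gamma libraries were below all others, and the Pam3CSK4 and combined libraries overlapped. IFN-gamma lowered it 2.60-fold against Control (log2 change -1.38 ± 0.16 SE, edgeR adjusted p = 0.00018). In the combined group Osm was 4.14-fold above IFN-gamma (2.05 ± 0.17, adjusted p = 2.2e-05) and 1.59-fold above Control (0.67 ± 0.16, adjusted p = 0.0068).

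Pam3CSK4 alone raised Osm 1.43-fold (0.52 ± 0.18, edgeR adjusted p = 0.040), a call that held in 12 of 21 alternatives, with adjusted p from 0.018 to 0.29. It was lost without Pam3CSK4 replicate 1 (0.31, adjusted p = 0.29), without Control replicate 2 (0.082) and without Control replicate 3 (0.073), among others. Between the combined group and Pam3CSK4 the change was 0.15 ± 0.18 (adjusted p = 0.69). The interaction of 1.53 ± 0.24 (adjusted p = 0.0041) was called in all 20 alternatives. Osm (ENSMUSG00000058755) lies on chromosome 11, 4236420 to 4241026, upstream of Lif on the same strand with 16530 bases and 0 annotated genes between them.

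Lif encodes leukaemia inhibitory factor, which signals through gp130 and the LIF receptor. It was at 0.0150, 0 and 19.9 FPKM in Control (1, 0 and 1584 counts), 1.60 and 1.62 FPKM with Pam3CSK4 (130 and 112 counts), 4.00, 0.0482 and 0.0597 FPKM with IFN-gamma (295, 4 and 4 counts), and 1.62, 1.74 and 4.87 FPKM in the combined group (145, 157 and 422 counts). In each of the 3 groups that include a library with stromal transcripts, that library had the highest Lif. Over all 11 libraries no comparison was called, and the SEs were 1.97 to 3.08 log2 units. Pam3CSK4 against Control was -1.94 (edgeR adjusted p = 0.54) and the combined group against IFN-gamma 1.02 (adjusted p = 0.73).

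Without those 3 libraries Lif was at 1.60 to 1.74 FPKM in libraries given Pam3CSK4 and at most 0.0597 FPKM in the others, so it passed the filter only through the groups where it was high. By counts per library size, Pam3CSK4 was 209 times Control replicates 1 and 2 (95% counting interval 37.1 to 8286; edgeR adjusted p = 6.0e-06), whose total was 1 count, and combined replicates 1 and 2 were 236 times them (42.0 to 9349; adjusted p = 3.6e-06). IFN-gamma replicates 2 and 3, with 8 counts in all, were 7.59 times them (1.02 to 337; adjusted p = 0.035), a call lost when combined replicate 3 was kept in the fit (adjusted p = 0.29). Against IFN-gamma the combined group was 30.3-fold higher (log2 change 4.92 ± 0.32 SE, adjusted p = 1.2e-05), and against Pam3CSK4 the change was 0.17 ± 0.20 (adjusted p = 0.61). These intervals cover counting error only. Lif (ENSMUSG00000034394) spans 4257557 to 4272514 on chromosome 11, plus strand.

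Of the receptor genes listed at the outset, the ligand-binding chain Il10ra was the only 1 called higher with IFN-gamma. Its level was 8.22, 22.1 and 16.1 FPKM in Control, 15.8 and 15.1 FPKM with Pam3CSK4, 17.2, 62.6 and 64.0 FPKM with IFN-gamma, and 24.0, 24.1 and 25.3 FPKM in the combined group. IFN-gamma replicate 1, a library with stromal transcripts, lay within the Control range, and replicates 2 and 3 were above all other libraries. The rise was 3.34-fold (log2 change 1.74 ± 0.49 SE, edgeR adjusted p = 0.018), and 4.34-fold without the 3 libraries (2.12 ± 0.38, adjusted p = 0.0024). It was lost without Control replicate 1 (adjusted p = 0.052), without IFN-gamma replicate 2 (0.055), without IFN-gamma replicate 3 (0.064) and in a fit of only the 2 groups (0.069).

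In Pam3CSK4 against Control the Il10ra change was -0.02 ± 0.53 (edgeR adjusted p = 0.98). The combined group against IFN-gamma was -0.99 ± 0.48 (adjusted p = 0.14), and -1.41 ± 0.37 without the 3 libraries (adjusted p = 0.016). Il10ra (ENSMUSG00000032089) is on chromosome 9, 45253837 to 45269149, minus strand, and overlaps the processed pseudogene Gm20612 and the microRNA gene Mir7086.

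Il10rb, the chain IL-10 shares with IL-22 and the lambda interferons, moved little. It was at 29.0, 25.7 and 21.5 FPKM in Control, 20.9 and 20.7 FPKM with Pam3CSK4, 16.9, 15.6 and 17.8 FPKM with IFN-gamma, and 18.8, 17.6 and 17.4 FPKM in the combined group. Control libraries were above all others, and the IFN-gamma and combined libraries overlapped. The fall with IFN-gamma was 1.42-fold (log2 change -0.51 ± 0.14 SE, edgeR adjusted p = 0.017) and that in the combined group against Control 1.34-fold (-0.42 ± 0.14, adjusted p = 0.033), the latter called in 12 of 21 alternatives. The first was lost without Control replicate 1 (adjusted p = 0.054) and without IFN-gamma replicate 2 (0.059). The second was lost without Control replicate 1 (adjusted p = 0.11) or 2 (0.085) and without any 1 of the combined libraries (0.064 to 0.090).

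With Pam3CSK4 the Il10rb change was -0.31 ± 0.16 (edgeR adjusted p = 0.14), and -0.46 ± 0.10 without the 3 libraries (adjusted p = 0.0053). Il10rb (ENSMUSG00000022969; chromosome 16, 91406164 to 91425834, plus strand) overlaps the protein-coding gene Gm21970 on the same strand, listed at 7.79 to 22.2 FPKM, and how reads shared by the 2 were counted is not given in the sources used here.

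Il6ra, the IL-6 binding chain, fell in each group relative to Control. Control libraries had 4.98, 4.81 and 3.71 FPKM, Pam3CSK4 libraries 1.35 and 1.47 FPKM, IFN-gamma libraries 2.71, 3.26 and 2.93 FPKM, and combined libraries 1.13, 1.16 and 1.12 FPKM. The 4 groups did not overlap, in the order Control, IFN-gamma, Pam3CSK4 and combined. Pam3CSK4 lowered Il6ra 3.25-fold (log2 change -1.70 ± 0.18 SE, edgeR adjusted p = 9.0e-05), and the combined group was 2.62-fold below IFN-gamma (-1.39 ± 0.16, adjusted p = 0.00016) and 3.74-fold below Control (-1.90 ± 0.16, adjusted p = 1.2e-05). Each of these 3 calls held in all 21 alternatives.

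IFN-gamma alone lowered Il6ra 1.43-fold (-0.51 ± 0.15, edgeR adjusted p = 0.024), called in 15 of 21 alternatives and lost without Control replicate 1 (0.077), Control replicate 2 (0.076), IFN-gamma replicate 1 (0.071) or IFN-gamma replicate 3 (0.054). The last neighbours in that order, Pam3CSK4 and combined, differed by -0.20 ± 0.17 (adjusted p = 0.56), and the interaction was 0.31 ± 0.23 (adjusted p = 0.40). Il6ra (ENSMUSG00000027947) is on chromosome 3, 89864059 to 89913196, minus strand. Its antisense neighbour Gm42809 had at most 2 counts in a library.

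Il6st, which encodes gp130, fell the most of the 4 receptor genes after Pam3CSK4. It was at 5.39, 5.97 and 8.23 FPKM in Control, 0.708 and 0.918 FPKM with Pam3CSK4, 2.82, 3.39 and 1.99 FPKM with IFN-gamma, and 1.25, 1.24 and 1.35 FPKM in the combined group. The groups did not overlap, in the order Control, IFN-gamma, combined and Pam3CSK4. The fall was 8.04-fold with Pam3CSK4 (log2 change -3.01 ± 0.23 SE, edgeR adjusted p = 1.5e-05), 2.21-fold with IFN-gamma (-1.15 ± 0.19, adjusted p = 0.0011) and 4.74-fold in the combined group (-2.25 ± 0.19, adjusted p = 1.5e-05), all against Control. Each held in all 21 alternatives.

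The combined group was 2.14-fold below IFN-gamma for Il6st (-1.10 ± 0.19, edgeR adjusted p = 0.0017). Adding IFN-gamma to Pam3CSK4 gave 0.76 ± 0.21 (adjusted p = 0.058), not called here but called in 6 of 21 alternatives. The effect of Pam3CSK4 on Il6st differed with and without IFN-gamma, with an interaction of 1.91 ± 0.28 (adjusted p = 0.0030) that was called in all 20 alternatives. Il6st (ENSMUSG00000021756) is on chromosome 13, 112464070 to 112510086, plus strand, with no overlapping gene.

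**Figure D3:**
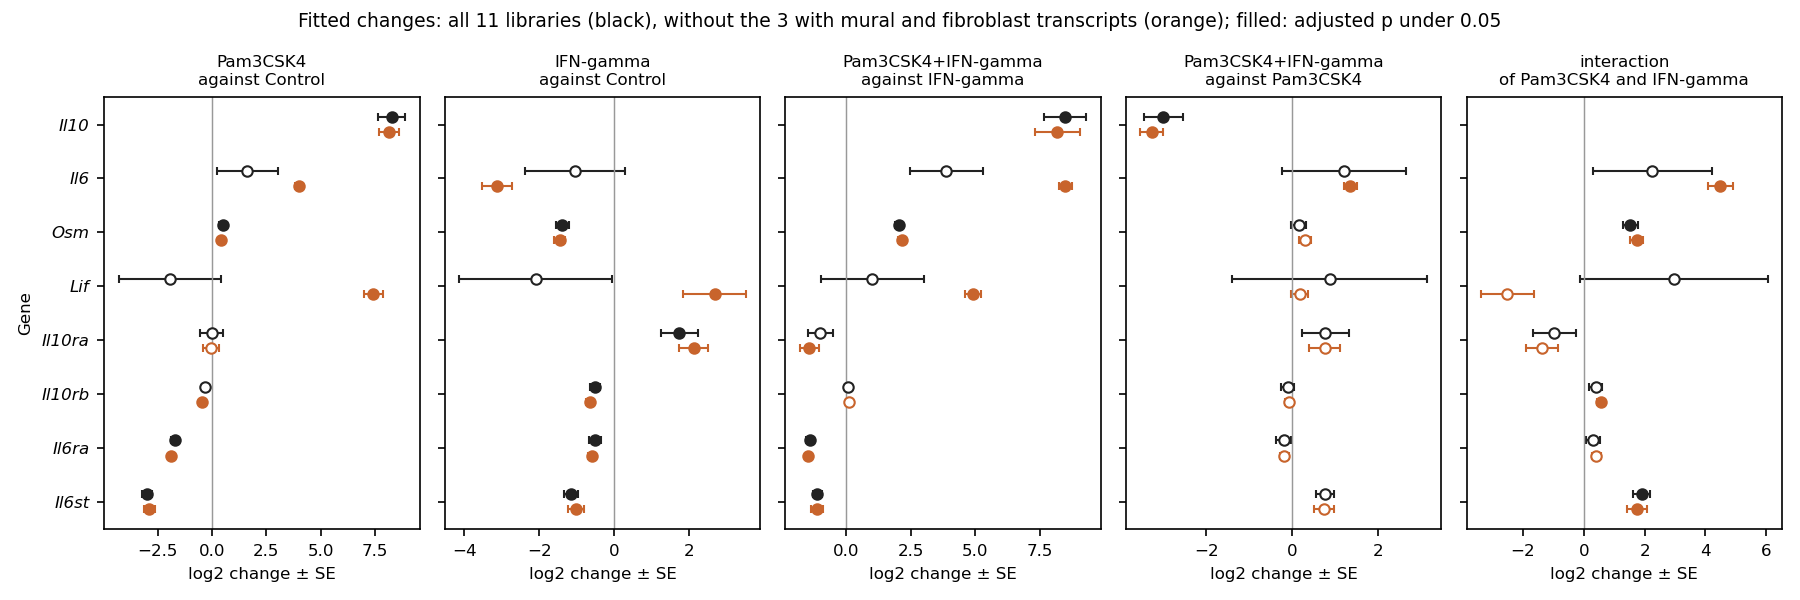
Log2 change with its SE (x axes, which differ between panels) for each gene (y axis) in 5 comparisons, over all 11 libraries (black) and without the 3 with stromal transcripts (orange); filled points have an adjusted p under 0.05. The 2 fits lie close for Il6st (-3.01 and -2.88 with Pam3CSK4) and far apart for Lif (-1.94 and 7.43); Il10 and Lif points against groups of 3 or fewer counts are fitted values that depend on the fit's prior count, and Il10 is left out where no fold is given.

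The other chains that these ligands need were low. Lifr, the LIF receptor chain, was at 0.304 to 0.518 FPKM in Control, 0.0229 and 0.113 FPKM with Pam3CSK4, 0.222 to 0.580 FPKM with IFN-gamma and 0.0577 to 0.0729 FPKM in the combined group, and did not pass the filter. Osmr, the oncostatin M receptor chain, did not pass it either. It was at 5.95 FPKM in Control replicate 3, 0.399 FPKM in IFN-gamma replicate 1 and 0.271 FPKM in combined replicate 3, the libraries with stromal transcripts, and at most 0.00897 FPKM elsewhere.

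Of 15 other ligands of both families 5 were tested. Il27 and Ebi3 encode the 2 subunits of IL-27, which signals through gp130 and Il27ra. Il27 went from 0.492 to 0.717 FPKM in Control to 7.76 to 11.0 FPKM with IFN-gamma (log2 change 4.01 ± 0.29 SE, edgeR adjusted p = 7.5e-06), and was lower again in the combined group, at 2.57 to 3.61 FPKM (-1.62 ± 0.25 against IFN-gamma, adjusted p = 0.0011). Il27 passed the filter only through treated libraries, so it had to differ from Control to be tested. Its rise with IFN-gamma was called in all 21 alternatives, the fit with no filter among them. Ebi3 rose with Pam3CSK4, from 24.5 to 34.5 FPKM in Control to 60.2 and 62.4 FPKM (0.98 ± 0.17, adjusted p = 0.0014). Pam3CSK4 also raised Il27 to 1.26 and 1.34 FPKM (1.12 ± 0.30, adjusted p = 0.015; 0.075 without the 3 libraries, and lost without either Pam3CSK4 library, 0.062 and 0.056) and lowered Clcf1, a CNTF receptor ligand (-1.13 ± 0.27, adjusted p = 0.0086; 0.083 without Pam3CSK4 replicate 1).

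Of these 5 ligands 2 rose and 1 fell with Pam3CSK4 (41.4% of all genes called), and 1 rose with IFN-gamma (41.6%). In the combined group Il27 fell and Ebi3 rose against IFN-gamma (Ebi3 0.45 ± 0.15, edgeR adjusted p = 0.047, called in 9 of 21 alternatives and lost without any 1 IFN-gamma or combined library, 0.063 to 0.14). The list's medians were -1.13 with Pam3CSK4 and -0.25 with IFN-gamma, beside -0.04 and -0.07 over all genes, and without the 3 libraries only 3 were tested, with medians of 0.81 and 0.06. Il11, named here after its values were seen, was among those that then dropped out. It was at 9.54 FPKM in Control replicate 3, 2.51 FPKM in IFN-gamma replicate 1 and 0.407 FPKM in combined replicate 3 and listed at 0 in the other 8 libraries.

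Of 13 other receptor chains and sheddases 4 were tested, of which 1 rose and 3 fell with Pam3CSK4 (41.4% of all genes called) and 1 rose with IFN-gamma (41.6%). Il27ra was at 0.501 to 1.07 FPKM in Control, 0.0411 and 0.0727 FPKM with Pam3CSK4, 1.70 to 2.38 FPKM with IFN-gamma and 0.193 to 0.224 FPKM in the combined group. It fell with Pam3CSK4 (log2 change -3.87 ± 0.45 SE, edgeR adjusted p = 0.00014), rose with IFN-gamma (1.29 ± 0.31, adjusted p = 0.0083) and was lower in the combined group than with IFN-gamma (-3.22 ± 0.33, adjusted p = 9.1e-05). Il27ra passed the filter only through libraries not given Pam3CSK4, all those of IFN-gamma among them. It thus had to differ from groups given Pam3CSK4 to be tested. The 3 calls held in every alternative that tested them (20, 21 and 21), the fit with no filter among them. Il11ra1, the IL-11 binding chain, fell from 8.14 to 12.3 FPKM in Control to 4.26 and 4.54 FPKM with Pam3CSK4 (-1.31 ± 0.21, adjusted p = 0.00094). Adam17, which sheds IL-6RA, rose with Pam3CSK4 (1.01 ± 0.22, adjusted p = 0.0054), and Adam10, a related sheddase, was lower in the combined group than in Control (-0.89 ± 0.16, adjusted p = 0.0013). The list's median was -0.93 with Pam3CSK4 and 0.32 with IFN-gamma, beside -0.04 and -0.07 over all genes.

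Among 15 JAK-STAT transducers and brakes 14 were tested, with 5 higher and 1 lower after Pam3CSK4 (41.4% of all genes called), 6 higher and 2 lower after IFN-gamma (41.6%), and 8 higher and 2 lower in the combined group against Control (47.6%). Socs3, the STAT3-induced brake on gp130, was at 2.23, 1.15 and 10.8 FPKM in Control, 69.1 and 81.5 FPKM with Pam3CSK4, 67.5 to 83.8 FPKM with IFN-gamma, and 257 to 263 FPKM in the combined group. The high Control value was again replicate 3. Socs3 rose with Pam3CSK4 (log2 change 4.04 ± 0.68 SE, edgeR adjusted p = 0.0013), with IFN-gamma (4.16 ± 0.66, adjusted p = 0.00097) and in the combined group against Control (5.94 ± 0.71, adjusted p = 0.00012). It was also higher in the combined group than with IFN-gamma (1.78 ± 0.59, adjusted p = 0.044), a call lost without any 1 IFN-gamma, Pam3CSK4 or combined library (0.064 to 0.12). Over all 21 alternatives this change was 1.70 to 1.85, and it was called in 12 of them. In the combined group against Pam3CSK4 Socs3 was 1.89 ± 0.69 (adjusted p = 0.14), and 1.90 without the 3 libraries (adjusted p = 0.00056). Leaving out Control replicate 3 alone raised the changes against Control to 5.41 with Pam3CSK4, 5.53 with IFN-gamma and 7.31 in the combined group. The interaction of -2.27 ± 0.87 (adjusted p = 0.11) was called without the 3 libraries (-3.57 ± 0.32, adjusted p = 0.00028).

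Socs1, the brake on interferon receptors, was at 1.04 to 1.69 FPKM in Control, 14.2 and 18.8 FPKM with Pam3CSK4, 419 to 463 FPKM with IFN-gamma and 270 to 293 FPKM in the combined group. Its rise was 3.62 ± 0.17 with Pam3CSK4 (edgeR adjusted p = 9.6e-07) and 8.47 ± 0.19 with IFN-gamma (adjusted p = 5.3e-09), and the combined group was slightly below IFN-gamma (-0.65 ± 0.13, adjusted p = 0.0050). Jak2, a kinase used by gp130 and the IFN-gamma receptor, was at 13.3 to 14.7 FPKM in Control and 78.2 and 92.4 FPKM with Pam3CSK4 (2.61 ± 0.11, adjusted p = 5.0e-07), with a smaller rise in IFN-gamma libraries, to 18.0 to 21.8 FPKM (0.66 ± 0.10, adjusted p = 0.00073). The combined group against Pam3CSK4 was -0.05 ± 0.11 for Jak2 (adjusted p = 0.84).

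Gab1, an adaptor downstream of gp130, fell with Pam3CSK4 from 4.52 to 4.98 FPKM to 0.270 and 0.318 FPKM (-4.04 ± 0.29, edgeR adjusted p = 8.9e-06). Stat3 was at 6.42 to 10.9 FPKM in Control, 9.05 and 9.19 FPKM with Pam3CSK4, 17.2 to 19.3 FPKM with IFN-gamma and 12.8 to 20.6 FPKM in the combined group. It rose with IFN-gamma (1.10 ± 0.20, adjusted p = 0.0023) and was 0.01 ± 0.23 with Pam3CSK4 (adjusted p = 0.99). The combined group was above Pam3CSK4 (1.08 ± 0.23, adjusted p = 0.019), a call lost without either Pam3CSK4 library (0.14 and 0.14) or combined replicate 1 (0.067) or 3 (0.063).

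Jak1 was at 19.1 to 29.0 FPKM and was not called in any of the 6 comparisons over all libraries. Tyk2, the IL-10RB kinase, rose slightly with Pam3CSK4 (0.46 ± 0.14, edgeR adjusted p = 0.025), a call lost without either Pam3CSK4 library (0.068 and 0.12), and was 0.26 ± 0.12 with IFN-gamma (adjusted p = 0.12). The list's medians were 0.16 with Pam3CSK4 and 0.28 with IFN-gamma, beside -0.04 and -0.07 over all genes.

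Of 12 genes known as STAT3 targets of IL-10 in macrophages 10 were tested, with 5 higher and 3 lower after Pam3CSK4 (41.4% of all genes called) and 7 higher and none lower after IFN-gamma (41.6%). Whether IL-10 had a part in these changes was not tested. Il1rn, the IL-1 receptor antagonist, was at 1.31 to 2.69 FPKM in Control, 4.36 and 4.79 FPKM with Pam3CSK4, 11.9 to 14.3 FPKM with IFN-gamma and 30.1 to 32.6 FPKM in the combined group. The groups did not overlap, and Il1rn rose with IFN-gamma (log2 change 2.95 ± 0.21 SE, edgeR adjusted p = 6.7e-06). Bcl3, an NF-kappaB cofactor, rose with Pam3CSK4 (2.38 ± 0.22, adjusted p = 4.0e-05), as did Hmox1, haem oxygenase (1.84 ± 0.23, adjusted p = 0.00021). Fcgr1, the high-affinity IgG receptor, rose with IFN-gamma (1.84 ± 0.19, adjusted p = 6.8e-05). Beside the 5 genes called higher with Pam3CSK4, others had lower group means there than in Control. Among these were Etv3 (2.49 against 4.23 FPKM), Zfp36 (64.2 against 113 FPKM), Nfil3 (5.42 against 11.8 FPKM) and Fcgr1 (36.6 against 52.0 FPKM). The list's medians were 0.25 and 0.54, beside -0.04 and -0.07 over all genes. Without the 3 libraries 2 of the 10 were lower with IFN-gamma and 7 higher (48.4% of all genes called).

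Of 15 regulators of Il6 and Il10 transcripts 14 were tested, with 5 higher and 6 lower after Pam3CSK4 (41.4% of all genes called), 3 higher and 3 lower after IFN-gamma (41.6%), and 4 higher and 1 lower in the combined group against IFN-gamma (34.2%). Nfkbiz encodes a nuclear IkappaB protein needed for Il6 induction. It was at 5.77 to 11.2 FPKM in Control, 84.7 and 96.4 FPKM with Pam3CSK4, 2.35 to 3.21 FPKM with IFN-gamma and 37.9 to 56.2 FPKM in the combined group. It rose with Pam3CSK4 (log2 change 3.49 ± 0.24 SE, edgeR adjusted p = 8.6e-06), fell with IFN-gamma (-1.47 ± 0.22, adjusted p = 0.00067) and was higher in the combined group than with IFN-gamma (4.21 ± 0.24, adjusted p = 2.6e-06). Zc3h12a, the RNase Regnase-1 that degrades Il6 mRNA, rose with Pam3CSK4 (2.58 ± 0.10, adjusted p = 3.6e-07) and was at 74.3 to 88.8 FPKM in the Pam3CSK4 and combined libraries and 11.1 to 15.3 FPKM elsewhere.

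Maf, a transcription factor of the Il10 gene, was at 7.66 to 11.2 FPKM in Control, 18.4 and 20.2 FPKM with Pam3CSK4, 2.59 to 3.37 FPKM with IFN-gamma and 15.1 to 16.3 FPKM in the combined group. It fell with IFN-gamma (-1.52 ± 0.17, edgeR adjusted p = 0.00014) and was higher in the combined group than with IFN-gamma (2.35 ± 0.18, adjusted p = 1.3e-05), with an interaction of 1.35 ± 0.26 (adjusted p = 0.0089). Arid5a, an RNA-binding protein that stabilises Il6 mRNA, rose with IFN-gamma (3.00 ± 0.29, adjusted p = 5.3e-05) and was higher in the combined group than with Pam3CSK4 (3.60 ± 0.36, adjusted p = 0.00026), at 1.51 to 1.77 FPKM against 0.139 and 0.157 FPKM. In Control it was at most 0.657 FPKM, so Arid5a passed the filter only through libraries given IFN-gamma. It thus had to differ from groups without IFN-gamma to be tested. Both calls held in all 21 alternatives, the fit with no filter among them. Hdac11, a repressor of Il10, fell with Pam3CSK4 (-1.82 ± 0.28, adjusted p = 0.00086). The list's medians were -0.08 with Pam3CSK4, -0.17 with IFN-gamma and -0.05 in the combined group against IFN-gamma, beside -0.04, -0.07 and -0.02 over all genes.

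In the combined group against Control the same lists gave, among the largest changes, Socs1 at 7.81, Il1rn at 4.20, Nfkbiz at 2.74, Zc3h12a at 2.61, Bcl3 at 2.43, Il27 at 2.40, Arid5a at 2.16, Adam17 at 1.03, Ebi3 at 0.59 and Il27ra at -1.93 (log2, edgeR adjusted p at most 0.010). Against IFN-gamma it had Hmox1 (2.08) and Il1rn (1.25) higher and Il11ra1 (-1.11) lower. Adam17 (0.68, adjusted p = 0.027) was lost there without any 1 IFN-gamma or combined library (0.061 to 0.071). Against Pam3CSK4 the combined group had Socs1 (4.19), Il1rn (2.89), Gab1 (1.93), Fcgr1 (1.30), and Zfp36, an RNA-decay factor (1.07), higher. Mean Zfp36 was 125 FPKM in the combined group, 64.2 FPKM with Pam3CSK4 and 113 FPKM in Control. Mean Gab1 in these groups was 1.04, 0.294 and 4.81 FPKM, so the combined group stayed below Control. Fcgr1 was lost without Pam3CSK4 replicate 1 (adjusted p = 0.056). Il27ra (1.93, adjusted p = 0.025), Il27 (1.28, adjusted p = 0.026) and the transcription factor gene Cebpb (0.95, adjusted p = 0.035) were each lost without either Pam3CSK4 library. With 1 library left out their changes were 1.57 to 2.37, 1.09 to 1.37 and 0.72 to 1.21. The Il27ra change lay near the floor, with 5 counts in all with Pam3CSK4 and 33 in the combined group.

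The interaction was negative for Socs1 (-4.28), Il27 (-2.73) and Bcl3 (-1.28, edgeR adjusted p = 0.021), and positive for Gab1 (3.63) and Nfil3, a transcriptional repressor (2.14, adjusted p = 0.017). Bcl3 was lost without Pam3CSK4 replicate 2 (adjusted p = 0.091), IFN-gamma replicate 3 (0.054) or combined replicate 1 (0.054), and Nfil3 without either Pam3CSK4 library (0.068 and 0.075). Clcf1 (1.19, adjusted p = 0.0496), Hdac11 (1.22, adjusted p = 0.049) and Zfp36 (0.57, adjusted p = 0.032) were lost without either Pam3CSK4 library and without most other single libraries. Their adjusted p without Pam3CSK4 replicate 1 was 0.17, 0.14 and 0.11.

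**Figure D4:**
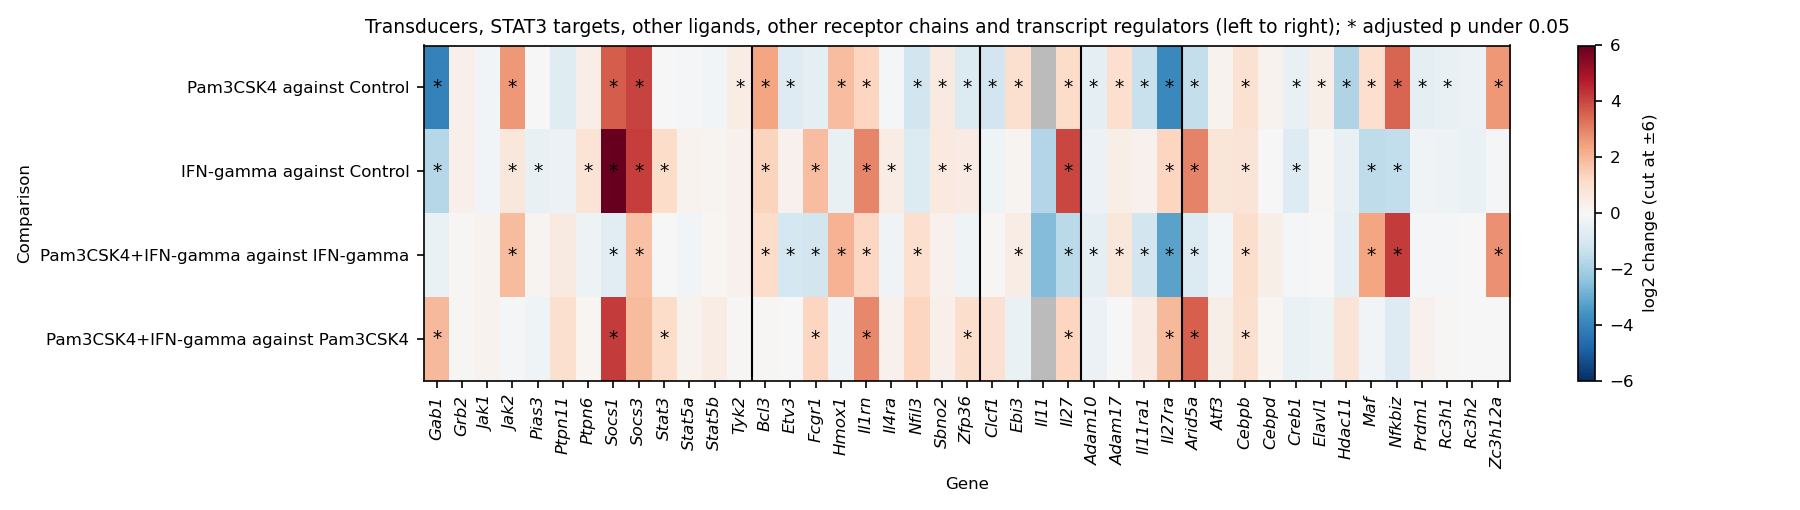
Log2 change (colour, limited to 6 in either direction) of tested pathway genes (columns, in the 5 lists separated by lines) in 4 comparisons (rows) over all 11 libraries; stars mark an adjusted p under 0.05 and grey marks a gene with no count in a group compared. Socs1 is darkest in IFN-gamma against Control (8.47), and Nfkbiz is red in both rows that add Pam3CSK4 (3.49 and 4.21); the unstarred colours of Il11 rest on libraries with stromal transcripts.

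The genes most like each of the 8 in level were found by Pearson correlation of log2(FPKM + 1) over the 11 libraries, among 9989 tested genes that are not predicted genes or pseudogenes. The libraries fall into 4 groups, so these values describe a shared pattern over groups and carry no test. Il10 was most like Raver2 (r = 0.99), Anxa5 (0.98) and Derl3 (0.98), Il6 most like Snx7 (0.97), Vmp1 (0.97) and Clmp (0.96), and Osm most like Abca1 (0.99), Pitpnc1 (0.98) and Zhx2 (0.98). For the receptors, Il6ra was most like Mlxipl (0.99), Stk32c (0.99) and Btbd6 (0.99), Il6st most like Tsc22d3 (0.99), Sardh (0.99) and Tkfc (0.98), Il10rb most like Gabre (0.99), PISD (0.97) and Kctd2 (0.97), and Il10ra most like Ccnj (0.90), Il3ra (0.89) and Isca2 (0.86). Lif was most like Fosl1 (0.99), Gstm2 (0.97) and Hspb1 (0.97), a pattern in which Control replicate 3 was the highest Lif value. Among the 8 themselves the highest value was Il6ra with Il6st (r = 0.90), and the lowest Il6 with Il6ra (-0.82).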

How the data were processed

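Total RNA of 11 libraries was measured. The deposited table holds, per the file headers, counts of reads per gene and, beside them, FPKM values, for each library. The tools were Cuffdiff, Cufflinks 2.1.1 and TopHat2 2.1.0 on mm10, per the submitters' processing notes, which give no roles. Which counting tool, annotation and strand setting were used is not given in the sources used here. Gene names and coordinates are the table's, and overlaps were read from GENCODE M21. Groups were taken from sample titles; in 2 combined libraries a treatment field spells the agonist with another last digit, taken as the same treatment.

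Counts were fitted in R 4.3.3 with edgeR 4.0.16 (TMM scaling, quasi-likelihood test, 4 group means, all 11 libraries, no block), two-sided, after a filter (1 FPKM or more in 2 or more libraries). SEs were derived from each log2 change and its F statistic. The scripts were tested on simulated data for Pam3CSK4 against Control. Of 100 genes changed by 1 log2 unit 40 were called, and of 100 changed by 2 units 89 were, with 6 false calls. A gene not called may therefore still have changed. Alternatives were DESeq2 1.42.0 (its size factors, and its test), limma 3.58.1 on log2(FPKM + 1) and log2(FPKM + 0.1), no filter, filterByExpr, a replicate block, leaving out each library, leaving out the 3 libraries with stromal transcripts or Control replicate 3 and IFN-gamma replicate 1, and fits of only the groups compared. The members, lists and alternatives were chosen with earlier results of these data known. Named genes are the 8 members, up to 3 called genes with the largest changes per list and comparison, 7 pathway genes whatever their result, and the 3 genes most like each member. Of the genes so named, some are not reported here. Promoter sequences are RefSeq's (GRCm38.p6).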

Additional observations from a re-analysis of the deposited data

Results flagged for a closer look

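The effect of Pam3CSK4 differed with and without IFN-gamma for 2 of the 8 genes, by the interaction term of edgeR's fit. Of all tested genes 16% were called in that term, and 8.01% as positive. As IFN-gamma was given after Pam3CSK4, its presence cannot be told apart here from order or from time since the agonist. For Il6st, Pam3CSK4 changed the level by -3.01 (log2) without IFN-gamma and by -1.10 with it, a difference of 1.91 ± 0.28 SE (edgeR adjusted p = 0.0030). For Osm the changes were 0.52 and 2.05, a difference of 1.53 ± 0.24 SE (edgeR adjusted p = 0.0041). Without the 3 libraries with stromal transcripts the differences were 1.75 (adjusted p = 0.0059) and 1.75 (adjusted p = 0.0010).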

How the results depend on the processing

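Over the alternatives, single-gene changes kept their direction and their side of the threshold in 2648 cases, lost the call in 146, gained it in 64 and changed sign in 45. The cause was not tested, apart from smaller sets of libraries or genes. Of the 8 genes, those called were 7 in Pam3CSK4 against Control without the 3 libraries with stromal transcripts, 3 with no filter and 2 in a fit of the 2 groups for IFN-gamma against Control, and 7 in the combined group against IFN-gamma without the 3 libraries or without Control replicate 3 and IFN-gamma replicate 1 (below, the 2 libraries). For the combined group against Pam3CSK4 they were 2 with DESeq2, 2 without the 3 libraries, 3 without the 2 and 4 in a fit of the 2 groups, and for the interaction 4 without the 3 libraries and 5 without the 2. Leaving out 1 library gave 3 to 6, 2 to 6, 4 to 6, 0 to 2 and 2 to 4 genes in these 5 comparisons. Of all genes, Pam3CSK4 against Control had 4532 calls, 2933 in a fit of the 2 groups and 2856 to 5632 with 1 library left out. IFN-gamma against Control had 4550 calls and 3600 to 5363 with 1 left out. The combined group against IFN-gamma had 3740 and 2679 to 4927. For IFN-gamma against Control, all-gene calls with no filter and in the fit of the 2 groups are not given here, so those counts of the 8 are a description. The combined group against Pam3CSK4 had 995 calls, 1536 with DESeq2, 2121 without the 3 libraries, 2347 without the 2, 2401 in a fit of the 2 groups and 400 to 2034 with 1 library left out (400 without Pam3CSK4 replicate 2, 2034 without Control replicate 3). The interaction had 1752 calls, 1080 with no filter, 3115 without the 3 libraries, 3379 without the 2 and 663 to 3260 with 1 library left out.

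Sign changes follow, as log2 values. In Pam3CSK4 against Control Il10ra was 0.0012 with DESeq2 size factors, 0.0013 with DESeq2, 0.095 and 0.11 with limma at pseudocounts of 1 and 0.1, 0.055 with no filter, 0.013 with filterByExpr and -0.32 to 0.38 with 1 library left out. Lif was 1.48 with limma at 0.1, 7.43 without the 3 or the 2 libraries and -2.53 to 7.43 with 1 left out, and Stat3 -0.17 to 0.11. In IFN-gamma against Control, with 1 library left out, Il6 was -5.53 to 1.34 and Lif -6.69 to 7.28, and Lif was 2.68 without the 3 or the 2 libraries. In the combined group against Control Lif was 0.33 and 2.03 with limma at 1 and 0.1, 7.60 without the 3 libraries, 8.30 without the 2 and -1.78 to 8.30 with 1 left out, and Jak1 was -0.041 and -0.042 with limma at 1 and 0.1. Against Pam3CSK4 Osm was -0.037 to 0.37 and Jak2 -0.16 to 0.059 with 1 left out, Jak2 0.017 without the 3 libraries, and Tyk2 -0.051 and -0.053 with limma at 1 and 0.1. Against IFN-gamma Stat3 was 0.011 with no filter and -0.12 to 0.16 with 1 left out. In the interaction Lif was -2.51 without the 3 libraries and -1.82 without the 2, and with 1 left out Lif was -6.41 to 7.56, Il6 -0.13 to 6.74 and Stat3 -0.13 to 0.16. Fitted Lif values against 1 Control count depend on the prior count. DESeq2 gave no adjusted p for Il6 and Lif.

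Whether replicate numbers pair the libraries could not be settled. Deviations from group means of same-numbered libraries correlated from -0.72 to 0.71 over 15 pairs, and 2 of 11 libraries correlated best with their own number. High values joined libraries with stromal transcripts, such as Control replicate 3 with IFN-gamma replicate 1 (0.81), which can hide a shared culture. With 2 libraries, the Pam3CSK4 deviations mirror each other. With the replicate block 4131, 4169, 3314, 724, 4895 and 1344 genes were called in the 6 comparisons, in the order Pam3CSK4 and IFN-gamma against Control, combined against IFN-gamma, Pam3CSK4 and Control, and interaction. Under that block Il10ra was 0.23 and Lif 1.25 in Pam3CSK4 against Control, and Lif 0.19 in IFN-gamma against Control, -0.23 in combined against Pam3CSK4, 1.02 in combined against Control and -0.41 in the interaction. Depth limits Il10 and Lif where a group had 3 or fewer counts. With 2 libraries, the Pam3CSK4 group leans on the spread of the others when 1 is left out.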
